A study of Camponotus floridanus with 24 samples.

Results

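The longest and the mid-length terminal larvae of Camponotus floridanus, the Florida carpenter ant, were compared to ask which microRNAs (miRNAs) differed in abundance between them. The 16 larvae were chosen by labelled length alone from 24 larvae with a miRNA library. The 8 largest larvae measured 6797.79 to 7598.06 µm, and the 8 middle larvae measured 5690.32 to 6689.42 µm. Mean length was 7189 ± 291 µm in the largest and 6203 ± 345 µm in the middle larvae (SD, n = 8 each). The larvae on either side of the upper boundary were ant 49 at 6797.79 µm and ant 46 at 6689.42 µm, and the next larva below the middle class measured 5502.35 µm. Every larva was a single female in the terminal larval stage, the last before pupation, and was sequenced as a whole body. The labels name no treatment, genotype, colony or age, and larvae are named here by their labelled ant number.

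A miRNA is a short RNA cut from a hairpin precursor, and it guides a protein complex to partly complementary messenger RNAs, whose translation and stability it lowers. A hairpin can yield a mature miRNA from each of its arms, usually at unequal levels. In insects, miRNAs act in moulting, metamorphosis and the control of tissue growth. Workers of this ant differ widely in body size, from minors to majors, and that size is set during larval life. In whole bodies, fewer cells of a type and less RNA per cell cannot be told apart.

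Each library listed 459 hairpins, named by scaffold and a serial number. Every hairpin appeared in 2 blocks of the table, and its entries are called here the first-listed and the second-listed form, 918 forms in all. None of the names carried a miRNA family, a position or a sequence, and 0 of 459 were found among the RefSeq genes of this ant. Forms are therefore named by their rank in mean level over the 16 larvae, with identifiers for 2 higher and 2 lower forms, and the whole-body label could not be checked against tissue miRNAs. Total reads ran from 903494 to 5163447 in the largest larvae and from 881734 to 4670014 in the middle larvae. The libraries fell into 2 sets by a single form, the first-listed form of NW_020229223.1_2442, measured as RPM, its reads per 1000000 counted reads. The high set had 2737 to 20614.5 RPM of it and the low set 103 to 193 RPM, with the dividing line at 1000 RPM. Of the 16 larvae, 2 largest and 5 middle larvae were in the high set, and 6 largest and 3 middle larvae were in the low set. Depth moved with the set, at 881734 to 1560682 reads in the 7 libraries of the high set and 1638537 to 5163447 reads in the 9 of the low set. The set was kept in the model as a covariate for this reason. Where a form had 0 reads, its level could still be as high as 0.581 CPM at the greatest depth and 3.40 CPM at the lowest depth among the 16 (3 reads of the total, counting error only).

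Few miRNA forms passed the test between the largest and the middle larvae, and most of their estimated differences were small. How many miRNAs differ was not resolved, since the number that passed was unstable. Of 315 forms tested, 13 rose and 3 fell in the largest larvae, together 5.08% of the forms tested (edgeR quasi-likelihood test, Benjamini-Hochberg adjusted p under 0.05). The higher forms were 4.13% and the lower forms 0.952% of those tested. Higher forms had a median log2 difference of 0.42, or 1.34-fold, and lower forms one of -0.42, a ratio of 0.747. The median over all 315 forms was 0.04, with an interquartile range of -0.12 to 0.22. The most abundant form of the larvae was among the 13. Every one of the 16 had the same adjusted p of 0.0416, since the adjustment ties neighbouring p-values, and 53 forms (16.8%) had an unadjusted p under 0.05. In none of the 315 forms did every largest larva lie above, or below, every middle larva. Of the 16 fits that left out 1 larva, 12 gave 0 forms and 4 gave 17 to 21.

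**Figure D1:**
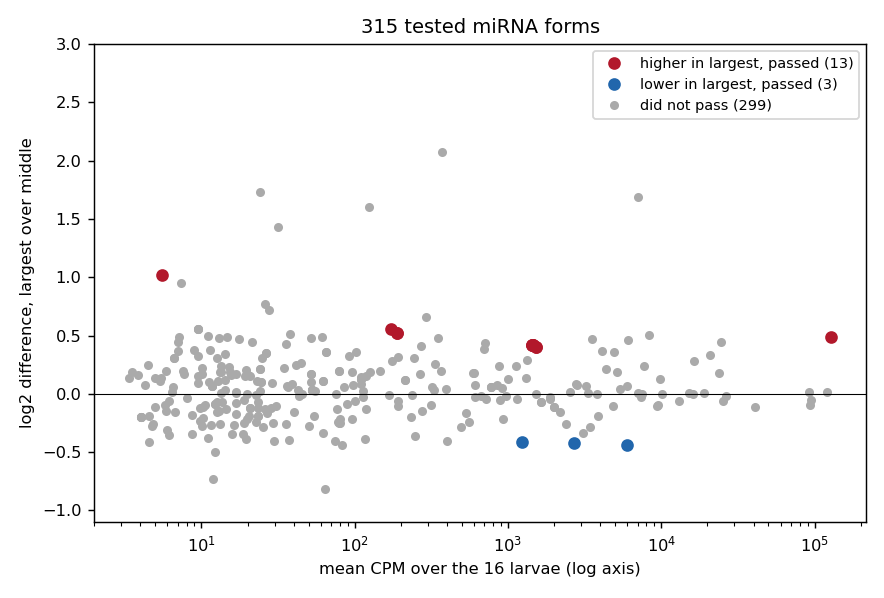
Each point is 1 of 315 tested forms, with mean CPM over the 16 larvae on a log axis and the log2 difference of the largest over the middle larvae on the vertical axis. The 13 higher and 3 lower forms that passed lie near 0.4 to 0.6 on either side of 0, apart from 1 scarce form at 1.02, while the 5 differences beyond 1 that did not pass have SEs of 0.944 to 1.29.

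The 16 forms held fewer independent signals than their number. Several hairpins shared near-identical counts, and such forms cannot be assigned to a single hairpin. With counts that differed by at most 5% in every library treated as 1 profile, the 13 higher forms made 6 profiles and the 3 lower forms made 3. That number rests on the cut, and forms with similar counts beyond it still stood as separate profiles. In ant 49, rank 56 had 2414 reads against 2286 for rank 58, and rank 115 had 307 against 339 for rank 113. The 6 may thus still overstate the separate signals. Over all tested forms, 65 fell into 25 such groups. With 1 form kept per group, 275 forms were tested and 0 passed, and the smallest adjusted p was 0.0720 (edgeR).

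The most abundant form in these larvae, rank 1, rose in the largest. Its level is given as CPM, the count per 1000000 reads after scaling by the trimmed mean of M-values (TMM). It ran from 114341 to 168585 CPM with a median of 140910 CPM in the largest larvae, against 77325 to 145678 CPM with a median of 122888 CPM in the middle larvae. The classes overlapped, and the 3 lowest larvae of the 16 were the 3 middle larvae of the low set. As a share of all counted reads it made up 13.8% ± 2.23 in the largest and 11.9% ± 2.92 in the middle larvae (SD, n = 8 each). The fitted log2 difference with the set in the model was 0.48 (SE 0.14, edgeR adjusted p = 0.0416), or 1.40-fold with a 95% interval of 1.15 to 1.70. Leaving out 1 larva moved it between 0.40 and 0.58, and it passed in 4 of those 16 fits.

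The remaining higher forms were much scarcer. A group of 8 forms with ranks 56 to 63, 6 of them near-identical and the other 2 sharing identical counts, had fitted log2 differences of 0.40 to 0.42. The forms tied at rank 58, which stand for the 6, ran from 1189 to 1994 CPM with a median of 1573 CPM in the largest larvae, against 1123 to 1520 CPM with a median of 1232 CPM in the middle larvae. The ranges overlapped, and the largest larvae reached levels that no middle larva had. The difference was 1.34-fold with a 95% interval of 1.13 to 1.58 (log2 difference 0.42, SE 0.12, edgeR adjusted p = 0.0416). Those 8 forms were 7 first-listed forms and 1 second-listed form, from hairpins on 6 scaffolds. Their levels are not added up here, since whether reads were counted under several of them is not given in the sources used here.

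A second group came from neighbouring entries on 1 scaffold. The first-listed form of NW_020229226.1_3013 ran from 155 to 294 CPM with a median of 227 CPM in the largest larvae, against 121 to 181 CPM with a median of 151 CPM in the middle larvae. Of the 8 largest larvae, 6 lay above every middle larva, and the other 2 lay within the middle range. The mean was 226 ± 47.6 CPM in the largest and 152 ± 16.8 CPM in the middle larvae (SD, n = 8 each), a log2 difference of 0.52 (SE 0.14, edgeR adjusted p = 0.0416). The first-listed form of NW_020229226.1_3014 had nearly the same counts and the same difference, 0.52 (SE 0.14). The form ranked 115, from the same scaffold, had 207 ± 48.3 CPM in the largest and 136 ± 14.8 CPM in the middle larvae, a log2 difference of 0.56 (SE 0.15). These 3 were also the forms that passed without the set as a covariate, where the count was 3 higher and 0 lower. Of the 7 tested forms on this scaffold, 6 had estimates above 0 and 4 passed, where 58.4% of all forms tested had estimates above 0 and 4.13% passed as higher. The 4 were not separate signals, since ranks 112 and 113 had nearly the same counts and the fourth, rank 60, belongs to the near-identical group above. The median log2 difference of the 7 was 0.42, and that of all forms tested was 0.04. Since the 7 include the 4 that passed on these same values, nothing is read from the counts or the median of the 7.

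The form with the greatest fold among those that passed was also the scarcest of them. The form ranked 298, a second-listed form, ran from 3.68 to 11.3 CPM with a median of 6.76 CPM in the largest larvae, against 2.08 to 6.22 CPM with a median of 4.08 CPM in the middle larvae. Its lowest count was 3 reads in 1 library, and all 5 middle larvae of the high set had only 3 to 7 reads, so single larvae are imprecise. The log2 difference was 1.02 (SE 0.28, edgeR adjusted p = 0.0416), or 2.02-fold with a 95% interval of 1.35 to 3.04.

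All 3 lower forms were among the 66 most abundant, and 2 of them came from 1 scaffold. The first-listed form of NW_020229841.1_37652, rank 28, ran from 4691 to 6724 CPM with a median of 5196 CPM in the largest larvae, against 5118 to 9850 CPM with a median of 5417 CPM in the middle larvae. The 3 middle larvae of the low set stood high, at 7212 to 9850 CPM, while the 5 of the high set had 5118 to 5518 CPM. Within each set, every largest larva lay below every middle larva. The log2 difference was -0.44 (SE 0.11, edgeR adjusted p = 0.0416), a ratio of 0.737 with a 95% interval of 0.629 to 0.863.

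The first-listed form of NW_020229841.1_37656, rank 45, had 2402 ± 293 CPM in the largest and 2967 ± 641 CPM in the middle larvae (SD, n = 8 each). Its range was 2069 to 2979 CPM in the largest and 1995 to 3881 CPM in the middle larvae, so the classes overlapped. The log2 difference was -0.42 (SE 0.11, edgeR adjusted p = 0.0416). The form ranked 66, on another scaffold, ran from 903 to 1301 CPM with a median of 999 CPM in the largest larvae, against 1102 to 1696 CPM with a median of 1386 CPM in the middle larvae. The ranges overlapped, and its log2 difference was -0.41 (SE 0.11, edgeR adjusted p = 0.0416). Of the 13 tested forms on the scaffold of ranks 28 and 45, 10 had estimates below 0 and 2 passed, with a median log2 difference of -0.11. Over all 315 forms, 58.4% had estimates above 0 and 0.952% passed as lower. Since the 13 include the 2 that passed on these same values, nothing is read from the counts or the median of the 13.

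**Figure D2:**
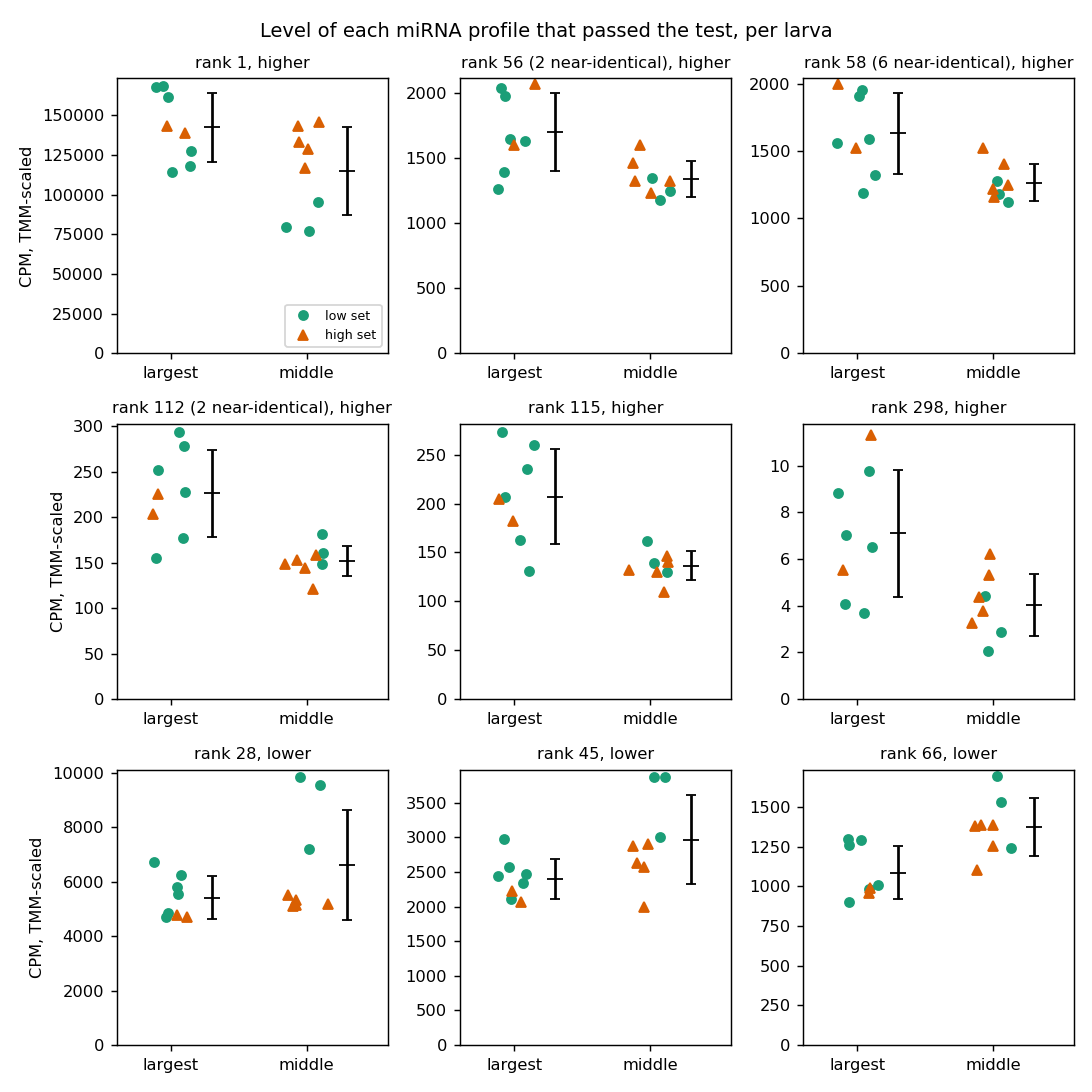
Each panel shows 1 count profile that passed, with TMM-scaled CPM per larva for the largest and the middle larvae (n = 8 each), circles for the low set and triangles for the high set, and black bars for the mean and SD. Classes overlap in each panel, and for ranks 1 and 28 the 3 middle larvae of the low set stand apart from the 5 of the high set.

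The other abundant forms gave smaller estimates. Of the 12 most abundant forms, rank 1 passed, where 5.08% of all forms tested passed. Estimates lay above 0 in 7 of the 12, a share near the 58.4% of all forms tested. The median log2 difference of the 12 was 0.01. Rank 2 made up 12.4% ± 1.42 of reads in the largest and 11.6% ± 2.99 in the middle larvae, a ratio of 1.01 with a 95% interval of 0.875 to 1.17. Rank 3 made up 9.19% ± 1.57 and rank 4 8.81% ± 1.41 in the largest larvae, against 9.67% ± 1.04 and 9.99% ± 0.918 in the middle larvae (SD, n = 8 each). Their ratios of 0.964 and 0.935 had intervals of 0.808 to 1.15 and 0.791 to 1.11. Rank 5 had a ratio of 1.01 with an interval of 0.884 to 1.16. Differences larger than these bounds are thus outside the intervals of ranks 2 to 5 in the main fit, while smaller ones are not resolved with 8 larvae a class. Those bounds hold for the main fit only. As log2 differences they were -0.19 to 0.23 for rank 2 and -0.18 to 0.22 for rank 5. Under the alternatives run, each set alone included, the estimates ran from -0.26 to 0.28 for rank 2 and from -0.20 to 0.21 for rank 5.

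Ranks 9 and 11 came closest to passing among the other abundant forms. Rank 9 had a log2 difference of 0.44 (SE 0.15, edgeR adjusted p = 0.0956), and its levels ran from 15464 to 38873 CPM in the largest and from 12069 to 35359 CPM in the middle larvae. Its mean share of reads was alike, at 2.48% ± 0.704 in the largest and 2.48% ± 0.864 in the middle larvae (SD, n = 8 each). By set, median shares were 2.39% in the largest and 1.52% in the middle larvae of the low set. In the high set they were 3.24% and 3.03%, and the classes overlapped in both sets. Under the alternatives run, its log2 difference ranged from 0.0975 to 0.51. Rank 11 had 19149 to 26730 CPM in the largest and 15756 to 22004.5 CPM in the middle larvae, a log2 difference of 0.34 (SE 0.10, edgeR adjusted p = 0.0660). Both passed once a single larva, ant 49, was left out. Over all 315 forms, 286 (90.8%) had a 95% interval that lay within 1 log2 unit of 0, and 103 had one within 0.5, with a median SE of 0.18. By abundance, ranks 1 to 20, with 20 forms tested, held 1 of the 16 forms. Ranks 21 to 100, with 80 tested, held 11, and the scarcer rest of the 315 held 4. Over all forms tested, 5.08% passed. Of the 11, 8 were the group of ranks 56 to 63, which shared near-identical or identical counts. These are thus not counts of separate signals, and no concentration by abundance is read from them.

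The forms that passed were set against the other listed form of their hairpin. What the first-listed and second-listed blocks stand for is not given in the sources used here. The second-listed form of the rank 1 hairpin, rank 18, had 9567 ± 458 CPM in the largest and 10148 ± 2900 CPM in the middle larvae, with a fitted log2 difference of 0.12 (SE 0.13, edgeR adjusted p = 0.725). For rank 28 the partner, rank 39, had a log2 difference of -0.29 (SE 0.11, adjusted p = 0.151). The partner of rank 45, rank 82, had one of -0.02 (SE 0.14), and that of rank 66, rank 103, one of -0.36 (SE 0.14). The first-listed partner of rank 298, rank 285, had a log2 difference of 0.45 (SE 0.24, adjusted p = 0.391), and that of rank 61, rank 127, one of 0.12 (SE 0.11, adjusted p = 0.653). Rank 61 belongs to the near-identical group, and rank 127 had the same fitted values as forms of other hairpins. That pair therefore cannot be assigned to a single hairpin. The partners of the other first-listed higher forms were too scarce to test, with at most 28 reads in any library.

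The balance of both forms of a hairpin was tested as the log2 ratio, first-listed over second-listed, in which depth cancels. Of 93 hairpins with both forms tested, 0 passed by limma, and 12 had an unadjusted p under 0.05. For the rank 1 hairpin the log2 ratio was 3.88 ± 0.256 in the largest and 3.52 ± 0.136 in the middle larvae, a difference of 0.34 (SE 0.13, limma unadjusted p = 0.0211, adjusted p = 0.223). For the hairpin of rank 45 the log2 ratio was 1.90 ± 0.377 in the largest and 2.11 ± 0.428 in the middle larvae, a difference of -0.38 (SE 0.19, limma adjusted p = 0.340). With a pseudocount of 5 in place of 0.5, 1 hairpin passed.

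The class difference was then fitted within each library set, since the sets held the classes unevenly. All 16 forms kept their sign in both sets, but they had been selected on the same larvae. The classes were fully separate in the low set for 3 of the 16, where the largest lay above in 6.98% and below in 1.9% of all forms tested. In the high set they were separate for 10 of the 16, where the largest lay above in 7.62% and below in 7.62% of all forms tested. The call used those values, so nothing is read from these counts. In the low set alone, with 6 largest and 3 middle larvae, 0 forms were higher and 3 lower, and 1 of the 16, rank 28, was among them. In the high set alone, with 2 largest and 5 middle larvae, 0 forms passed by edgeR, 31 having an unadjusted p under 0.05. For rank 1 the log2 difference was 0.63 in the low set (95% interval 0.30 to 0.97, edgeR adjusted p = 0.0673) and 0.12 in the high set (interval -0.13 to 0.37). For rank 28 it was -0.79 in the low set (interval -1.14 to -0.43, edgeR adjusted p = 0.0378) and -0.11 in the high set (interval -0.38 to 0.17). For rank 58 the separate fits gave 0.46 in the high set and 0.28 in the low set, a gap that the joint fit did not show. The separate fits computed the TMM factors and the spread again from the libraries of 1 set, so their values are not on the scaling of the joint fit. The part of this in the gap was not tested.

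The difference between the sets was itself tested with a class by set term. Of 315 forms, 0 passed by edgeR and 0 by DESeq2, and 41 had an unadjusted p under 0.05 by edgeR. Rank 1 had a term of -0.69, high set minus low set (SE 0.21, unadjusted p = 0.00454, adjusted p = 0.228, edgeR), and its partner, rank 18, a like one of -0.69 (SE 0.20, adjusted p = 0.192). Rank 28 had a term of 0.51 (SE 0.19, adjusted p = 0.234). Rank 58 had a term of 0.01 (SE 0.24, adjusted p = 0.990, edgeR), and ranks 112 and 115 had terms of 0.07 (SE 0.28) and -0.0024 (SE 0.30). Without ant 3 or without ant 48, 2 forms passed this test in each case. Leaving out either largest larva of the high set left that arm with 1 larva, which was assumed to vary like the others.

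**Figure D3:**
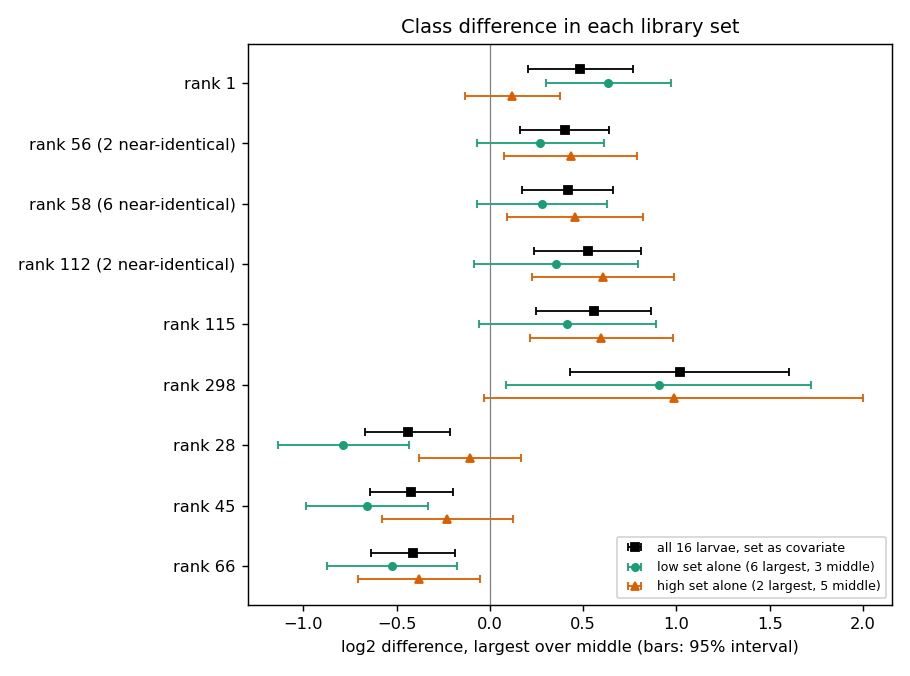
For each profile that passed, points give the log2 difference of the largest over the middle larvae with its 95% interval, over all 16 larvae with the set as a covariate and in each set alone. The fits of each set alone used TMM factors computed again from its own libraries. For ranks 1, 28, 45 and 298 the interval of the high set spans 0 and that of the low set does not, for ranks 56, 58, 112 and 115 the reverse holds, and for rank 66 neither spans 0. In the joint fit the class by set term did not pass for any of these profiles, and for rank 58 it was 0.01 (SE 0.24).

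The share of rank 1 shows this split directly. In the low set it was 10.4% to 16.4% of reads in 6 largest larvae, against 7.98% to 8.78% in 3 middle larvae, with no overlap. In the high set it was 14.0% and 14.3% in 2 largest larvae, against 12.4% to 14.6% in 5 middle larvae, and the classes overlapped. For comparison, the smallest larvae of the series had 6.86% to 11.4% in the low set (n = 6) and 8.15% and 10.2% in the high set (n = 2). In the low set the 3 middle larvae lay within the range of the smallest larvae. The set and depth moved together, and their part in this was not tested.

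**Figure D4:**
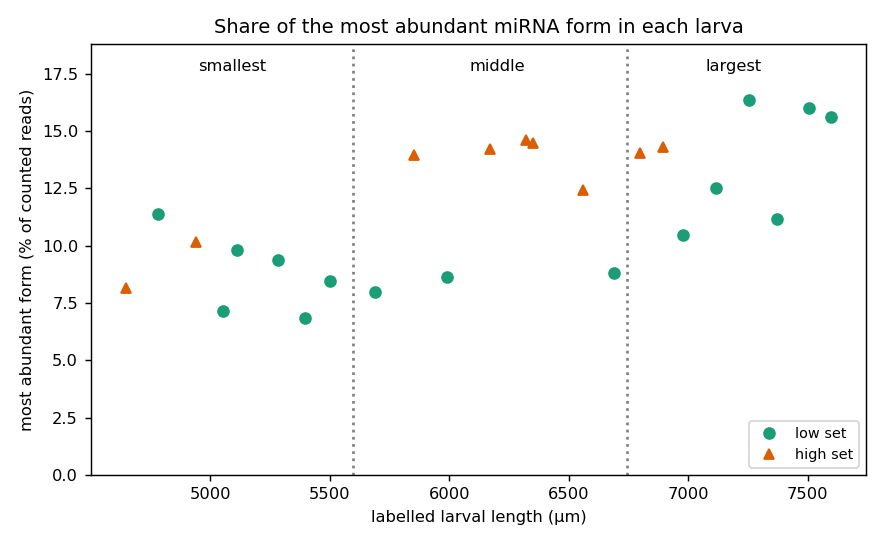
Points give the share of counted reads taken by the most abundant form in each of the 24 larvae against labelled length, with circles for the low set, triangles for the high set and dotted lines at the class boundaries. The 5 middle larvae of the high set lie between 12.4% and 14.6%, and the 3 of the low set between 7.98% and 8.78%.

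Whether a change belonged to this step of size was tested against the step below it, in a fit of all 24 larvae with the set as a covariate. The contrast was the largest minus middle difference less the middle minus smallest difference. Of 358 forms, 0 passed by edgeR and 0 by DESeq2, with 24 at an unadjusted p under 0.05 by edgeR, so no form was shown to be particular to the upper step. Without ant 15 of the smallest larvae, 8 forms passed this contrast. Both steps share the middle larvae. Rank 1 had a log2 difference of 0.42 in the upper step and 0.30 in the lower step, and rank 28 had -0.40 in the upper step and -0.18 in the lower step. The form tied at rank 58 had 0.34 in the upper step and -0.27 in the lower step (adjusted p of the contrast 0.416, edgeR). The form of NW_020229226.1_3013 had 0.48 in the upper step and -0.22 in the lower step (adjusted p of the contrast 0.416, edgeR). Within that 24-larva fit, 0 forms passed in the upper step and 17 (4.75%) passed in the lower step.

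Length was also used as a number within the same 16 larvae. By edgeR, 28 forms (8.89%) rose and 10 (3.17%) fell along length, 12.1% of the 315 tested. Length defined the classes and the larvae were the same, so this is no separate support for the forms named above. Rank 1 had a slope of 0.51 log2 units per 1000 µm (SE 0.097, edgeR adjusted p = 0.00572) and rank 28 one of -0.46 (SE 0.081, edgeR adjusted p = 0.00470). The slope used differences within as well as between the classes. Rank 68 was chosen after its values were seen. Rank 68 had a slope of 0.45 (SE 0.12, edgeR adjusted p = 0.0301) and a class difference of 0.24 (SE 0.16, adjusted p = 0.542), with 1001 to 1360 CPM in the largest and 644 to 1443 CPM in the middle larvae.

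Library-wide measures were compared with two-sided exact permutation tests of the difference of class means. These ran over 1764 arrangements of class within set, adjusted over 4 measures. Each p-value measured how far the pooled difference of means lay from its mean over these arrangements. That mean need not be 0, since the sets held the classes unevenly. Shannon diversity was 4.84 ± 0.105 bits in the largest and 4.89 ± 0.113 bits in the middle larvae (SD, n = 8 each, exact p = 0.874, adjusted p = 0.874). Second-listed forms held 5.10% ± 0.204 of reads in the largest and 5.12% ± 0.213 in the middle larvae (exact p = 0.405, adjusted p = 0.782). Within sets the order turned, with 5.03% in the largest and 4.96% in the middle larvae of the low set, and 5.30% in the largest and 5.21% in the middle larvae of the high set. Diversity averaged 4.79 bits in the largest and 4.80 bits in the middle larvae of the low set, and 4.98 bits in the largest and 4.95 bits in the middle larvae of the high set. Total reads had a mean of 3187320 in the largest and 2364210 in the middle larvae (exact p = 0.586, adjusted p = 0.782). The medians, which were not tested, were 3668513.5 and 1522169.5. The mean was lower in the largest larvae within the low set and higher within the high set. The share of rank 1 differed by 1.92 percentage points when pooled (exact p within sets = 0.0181, adjusted p = 0.0726), and over all 12870 arrangements without sets the exact p was 0.160. Its mean was 13.7% in the largest and 8.47% in the middle larvae of the low set. In the high set it was 14.2% in the largest and 13.9% in the middle larvae.

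Larvae of a class also differed among themselves. The SD of log2 CPM between larvae had a median over forms of 0.31 in the largest and 0.40 in the middle larvae, and within sets the medians were 0.30 in both classes. The highest larva exceeded the lowest by a median of 2.56-fold, and in 8 forms by more than 100-fold. These forms were picked for their spread, after their values were seen. Rank 26 ran from 583 to 25742 CPM with a median of 6425 CPM in the largest larvae, against 167 to 40765 CPM with a median of 914 CPM in the middle larvae. Both classes held low and high larvae, and its log2 difference of 1.69 (SE 1.18, adjusted p = 0.553, edgeR) was not resolved. Of the 6 forms with an estimate beyond 1 log2 unit, 1, rank 298, passed, and the others had SEs of 0.944 to 1.29.

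The number of forms that passed depended on single larvae of both classes. Without ant 17, 42, 48 or 49, between 17 and 21 forms passed by edgeR. Without any other larva the count was 0, which holds for ants 3, 26, 40, 43 and 44 of the largest and ants 19, 27, 31, 32, 36, 38 and 46 of the middle class. The smallest adjusted p in those 12 fits lay between 0.0587 and 0.122. With both the set and log10 reads as covariates 0 forms passed, the smallest adjusted p being 0.0544, and with limma-voom 0 passed, the smallest being 0.0517. DESeq2 gave 19 higher and 10 lower forms, and 15 of the 16 were among these.

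**Figure D5:**
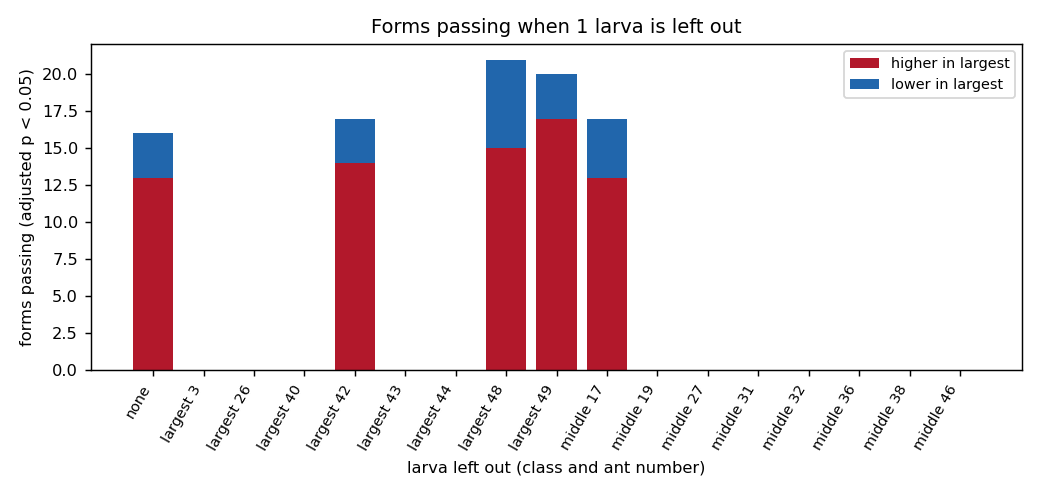
Bars count the forms that passed at an adjusted p under 0.05 (edgeR), higher and lower in the largest larvae, with no larva left out and with each of the 16 larvae left out in turn. The bar for no larva left out stands at 16, 4 other bars stand between 17 and 21, and 12 stand at 0.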

How the data were processed

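Small RNA of single whole larvae was sequenced; per the labels' protocols, libraries were made with an Illumina TruSeq small RNA kit. The submitters' processing notes name Trim Galore 0.6.7 and bcl2fastq 2.20. Which aligner, miRNA caller and genome build made the tables is not given in the sources used here. The deposited counts are raw read counts per listed form, per the file headers, and the authors' deposited RPM equals the count per 1000000 counted reads to within 0.0050. Each table lists 924 entries in 2 blocks, taken here as the first-listed and second-listed form of a hairpin, and 3 names repeated within a block were collapsed to their maximum. The floor of 3 reads ignores all but counting error.

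The filter on low counts required 10 reads or more in 8 or more of the 16 larvae (315 of 918, with 99.9% or more of the reads in each library; 221 first-listed and 94 second-listed). The test used TMM scaling and the library set as a covariate in edgeR 4.0.16, R 4.3.3. The test by set used the same forms. The 24-larva fit required 10 reads or more in 8 or more of 24 libraries. Ratios were tested with limma 3.58.1, and DESeq2 1.42.0 was an alternative. Tests were checked on simulated data. Reads carry no stated molecular identifiers. No 2 of the 16 libraries agreed within sampling noise (smallest chi-square per degree of freedom 27.0 over 120 pairs). The rule for named forms took up to 12 that passed per direction by p, the 4 next by p where fewer than 4 passed, and the 12 most abundant, with identical counts described once; the 13th higher form is kept in the group of ranks 56 to 63, and ranks 26 and 68 and the hairpin partners fall outside the rule. The classes, lists and named forms were chosen with earlier results of these data known, and the sets of libraries come from the counts, not from the labels.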

Additional observations from a re-analysis of the deposited data

Results flagged for a closer look

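Within each class of 8, the gap of the highest or lowest larva to its neighbour was set against the class range for the 4 library-wide measures and the 31 named forms, 70 sets in all. It stood out in 2, where chance gives about 1 in 20 sets. Shannon diversity in ant 3 of the largest larvae was 5.08 bits, whereas the other 7 lay between 4.74 and 4.88 bits, so that the gap took up 0.592 of the class range. This was the shallowest library of the class, with 903494 reads, and it was in the high set. Ant 48 of the largest larvae had 19.3 CPM of rank 254 whereas the other 7 lay between 5.99 and 12.3 CPM, so that the gap took up 0.530 of the class range; that form had a log2 difference of -0.73 (SE 0.22, edgeR adjusted p = 0.0550) with all larvae.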

How the results depend on the processing

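The 16 forms kept their direction under the alternatives run, rank 298 not being tested under the filter of 100 reads. The number of forms that passed did not hold. Over all forms tested it was 3 without the set as a covariate, 0 with set and log10 reads, and 0 with DESeq2 size factors in edgeR. It was 3 with no scaling, 2 with no filter (1 of the 16 among them), 3 with at least 100 reads, 29 by DESeq2 and 0 by limma-voom. In the fit of 24 larvae it was 0, in the low set 3 (1 of the 16 among them), in the high set 0 and along length 38. With the maximum form of a hairpin it was 0, and with 1 form kept of identical counts 3. With log10 reads in place of the set, all 16 forms passed. Added after seeing the data, 1 form kept of near-identical counts gave 0 and an adjusted p under 0.10 gave 24. Leaving out 1 larva gave 0 to 21 forms, 0 to 8 for the contrast of steps, 0 to 2 for the class by set term and 0 for the ratio, which gave 1 hairpin at a pseudocount of 5. The rank 1 share, a difference of 1.92 points, had an exact p of 0.160 without sets, and 1.36 to 2.40 points with 1 larva left out. The second-listed share differed by -0.0624 to 0.0349 points with 1 larva left out.

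Signs turned in abundant forms that did not pass. With DESeq2 size factors the log2 difference was -0.0500 for rank 2, -0.0511 for rank 5 and -0.0664 for rank 12; with no scaling it was -0.0505, -0.0499 and -0.0628 for these 3, with no filter -0.0334, -0.0343 and -0.0476, with at least 100 reads -0.0443, -0.0450 and -0.0614, and by DESeq2 -0.0500, -0.0512 and -0.0663. In the low set ranks 2 and 5 had -0.26 and -0.20. Rank 12 had -0.00288 with log10 reads in place of the set, -0.0143 in 24 larvae and -0.17 in the high set. Rank 7 had 0.24 without the set, 0.00495 with set and reads, 0.0645 with reads, 0.0626 in 24 larvae and 0.26 in the high set. Rank 3 had 0.0182 without the set and rank 8 had 0.0119 in the high set. With 1 larva left out, rank 2 ran from -0.0728 to 0.0881, rank 3 from -0.16 to 0.0191, rank 5 from -0.0577 to 0.0873, rank 7 from -0.16 to 0.0933 and rank 12 from -0.0653 to 0.0566. The cause was not tested. No paired analysis was possible because each ant number belongs to a single larva. The median SE was 0.11 in ranks 1 to 20 and 0.23 in the scarcest 114 forms, but single abundant forms had larger ones (rank 26, 1.18); the part of depth in this was not tested.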

Other observations

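The next lower forms by p did not pass: ranks 254, 47, 87 and 138 had log2 differences of -0.73, -0.26, -0.25 and -0.44. Rank 87, from the same hairpin as rank 254, made up 0.0493% ± 0.00535 of reads in the largest and 0.0631% ± 0.00562 in the middle larvae (SD, n = 8 each). The median Pearson r of log2 CPM across the 315 forms was 0.981 between largest larvae of one set (16 pairs), 0.977 between middle larvae of one set (13 pairs) and 0.978 between a largest and a middle larva of one set (28 pairs). It was 0.964 between largest larvae of different sets (12 pairs) and 0.958 between middle larvae of different sets (15 pairs). Forms are not independent replicates, and these values are given as a description.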
